A study of Homo sapiens with 6 samples.

Results

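Cells copy their DNA once per division with a set of proteins that act in order. The origin recognition complex, CDC6 and CDT1 load the MCM2-7 ring onto DNA, kinases and the GINS complex turn that ring into an active helicase, and polymerases, the sliding clamp PCNA and its loader then build the new strands. Many of these genes are targets of E2F transcription factors and are expressed most strongly around the start of S phase in dividing cells.

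The 46 genes described here were chosen by symbol, as parts of licensing, helicase, polymerase, clamp loading and chromatin assembly complexes. Their values were not part of the rule, but earlier results of these data were known when they were chosen. Of these 46, 44 have a value in the deposited table of 16715 distinct gene identifiers. PRIM1 and FEN1 were not analysed here. All 44 passed the filter on low values and none through 1 group alone, since the lowest value of any member in any library was 7.31 FPKM. FPKM is a count of fragments scaled to transcript length and library size, so levels of different genes can be compared per length.

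The series measured RNA in HCT116 cells, an established human colorectal carcinoma line, in a study of DNA methylation and alternative transcripts. There were 3 control libraries and 3 libraries from cells given 5aza at 5 µM for 48 hours and then kept for another 48 hours in fresh medium, all from cells at passage 7 to 10. Azanucleosides are cytidine analogues that enter nucleic acids during synthesis and trap DNA methyltransferases. The treated columns are coded DAC, while the sample titles say 5aza, the name used here. The labels do not say what the control cells received, and nothing says that the 3 libraries of a group came from separate cultures, so p-values measure the spread between libraries, which may be technical.

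Summed FPKM lay between 601916 and 628399 in control libraries and between 577735 and 592051 in 5aza libraries, and read totals are not stated, so the depth is unknown. Across the genes tested, log2 values correlated at Pearson's r of 0.992 to 0.993 within groups and 0.976 to 0.977 between groups, which describes the libraries only, since genes are not independent replicates. Of 10 fixed markers of colon carcinoma epithelium, 8 were at 1 FPKM or more in all libraries, and VIL1 and LGALS4 stayed at or under 0.191 and 0.412 FPKM. The summed level of these 10 markers was 2503 to 2660 FPKM in control and 3000 to 3076 FPKM in 5aza libraries. Most of this sum was KRT8, KRT18 and KRT19, which rose, while EPCAM fell from 166 to 153 FPKM and CLDN7 was at a mean of 139 and 131 FPKM and did not pass. Leukocyte markers summed to 3.25 to 4.36 FPKM in control and 5.64 to 6.29 FPKM in 5aza libraries, fibroblast markers to 4.57 to 4.95 and 6.71 to 7.71 FPKM, and endothelial markers to 0.165 to 0.352 and 0.223 to 0.613 FPKM. Most of the leukocyte sum was CD68 and most of the fibroblast sum COL1A1, whereas PTPRC stayed at or under 0.108 FPKM, and COL1A2 and LUM were listed at 0 in all 3 control libraries. The part of these markers in the results on replication genes was not tested.

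The sequence around the start of several members carries the letters that E2F proteins are known to bind. Promoter windows from RefSeq (GRCh38.p14), from 250 bases before to 50 bases after a gene's start, were matched by symbol for 38 of the 44 genes, all but MCM4, MCM5, GINS4, POLD3, RPA2 and RPA3. The E2F motif was searched as TTTCCCGC, TTTCGCGC, TTTGCCGC or TTTGGCGC on both strands; some matches overlap, because the motif can run into its own reverse complement. It was present in 20 of 38 members (52.6%), in 6.68% of the 9423 tested genes with a window, in 3.99% of all 27305 genes and in 3.31% of all 35116 windows. In MCM2, CDC6 and GINS1 the only matches lay after the start. For this and the other motifs, a gene counted as holding the motif if any of its windows did. Genes with several windows thus had more chances of a match. These shares are a description, with no test, and a match is not a shown binding site.

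The stretches below show this motif in genes of successive steps, read 5' to 3' on the strand of the gene. Except for MCM6, each ends at the base before the gene start that its window used. MCM7 has 3 windows and CDC7 and PCNA have 2 each, and for these a window with an E2F match was chosen. Capitals mark the E2F motif and CCAAT, the letters known to be bound by NF-Y, on either strand. CDT1 and GINS2 have 1 E2F match each, CDC7 has 2, MCM6 has 2 pairs of overlapping matches, and MCM6, MCM7 and PCNA have both motifs. The MCM6 stretch ends 61 bases before the start. POLA2 is shown because it holds a match and its level did not pass the test, and CHAF1A and RFC4 because they fell and hold no exact E2F match in this window. Only the exact letters were searched, so a gene without a match may still hold a near match. CHAF1A (gttcccgc) and RFC4 (attcccgc) each hold letters that differ from TTTCCCGC by 1. CDT1 and POLA2 hold tttggcgg, unmarked, which differs from TTTGGCGC by 1.
CDT1 (+ strand, chr16:88803709-88803788): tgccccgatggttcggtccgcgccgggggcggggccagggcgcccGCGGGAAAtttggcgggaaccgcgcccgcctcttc
MCM6 (minus strand, chr2:135876504-135876613): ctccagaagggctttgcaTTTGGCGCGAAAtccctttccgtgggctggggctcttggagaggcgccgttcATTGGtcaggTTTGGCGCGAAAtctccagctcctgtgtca
MCM7 (minus strand, chr7:100101398-100101597): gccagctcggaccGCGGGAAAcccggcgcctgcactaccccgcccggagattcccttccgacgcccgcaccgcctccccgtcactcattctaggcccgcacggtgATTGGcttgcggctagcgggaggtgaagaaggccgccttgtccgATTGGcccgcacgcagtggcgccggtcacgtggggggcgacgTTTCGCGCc
CDC7 (+ strand, chr1:91501022-91501111): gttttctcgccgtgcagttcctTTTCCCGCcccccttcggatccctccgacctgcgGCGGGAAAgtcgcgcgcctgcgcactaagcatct
GINS2 (minus strand, chr16:85688955-85689034): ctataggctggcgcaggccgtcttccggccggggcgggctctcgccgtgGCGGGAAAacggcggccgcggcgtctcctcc
PCNA (minus strand, chr20:5126623-5126702): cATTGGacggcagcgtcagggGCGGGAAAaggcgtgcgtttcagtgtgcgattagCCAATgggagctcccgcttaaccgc
POLA2 (+ strand, chr11:65261882-65261961): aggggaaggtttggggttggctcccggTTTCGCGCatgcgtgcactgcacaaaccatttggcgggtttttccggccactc
CHAF1A (+ strand, chr19:4402520-4402639): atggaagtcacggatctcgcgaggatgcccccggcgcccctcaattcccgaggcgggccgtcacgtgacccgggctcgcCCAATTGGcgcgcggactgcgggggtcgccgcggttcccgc
RFC4 (minus strand, chr3:186806483-186806602): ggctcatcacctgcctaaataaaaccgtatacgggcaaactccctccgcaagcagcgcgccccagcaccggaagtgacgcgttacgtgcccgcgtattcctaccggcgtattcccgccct

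The changes of members with and without an exact match were close, where members without one may hold near matches. Of the 20 genes with an E2F match, 19 fell, with a median log2 fold change of -0.28, and of the 18 with a window and no match, 16 fell, with a median of -0.31. CCAAT was present in 22 of 38 members (57.9%) and in 43.2% of tested genes. TTTGAA, the letters of the cell cycle element typical of mitotic genes, was present in 1 of 38 members, DBF4, and in 13.4% of tested genes. The ratio of observed to expected CpG had a median of 0.956 in member windows, 0.845 in tested genes and 0.580 in all genes, where the first window was taken for genes with several.

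Most replication genes were lower after 5aza. Of the 44, 40 fell, 0 rose and 4 did not pass (limma, Benjamini-Hochberg adjusted p under 0.05 over all 12360 genes tested), where 13.1% of all genes tested fell and 10.6% rose. All 44 log2 fold changes were negative, so that no gene rose at an unadjusted p either. The median member was 18.9% lower in 5aza, a median log2 fold change of -0.30, against -0.01 over all genes tested, and the size of the falls ranged from 9.02% for CDC6 to 26.7% for MCM5. In 42 of the 44, every 5aza library lay below every control library, which held for 22.6% of all genes tested, and in 0 of the 44 every 5aza library lay above every control library, which held for 19.6%. In bulk RNA, fewer cells in S phase and less of these transcripts per cell cannot be told apart.

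**Figure D1:**
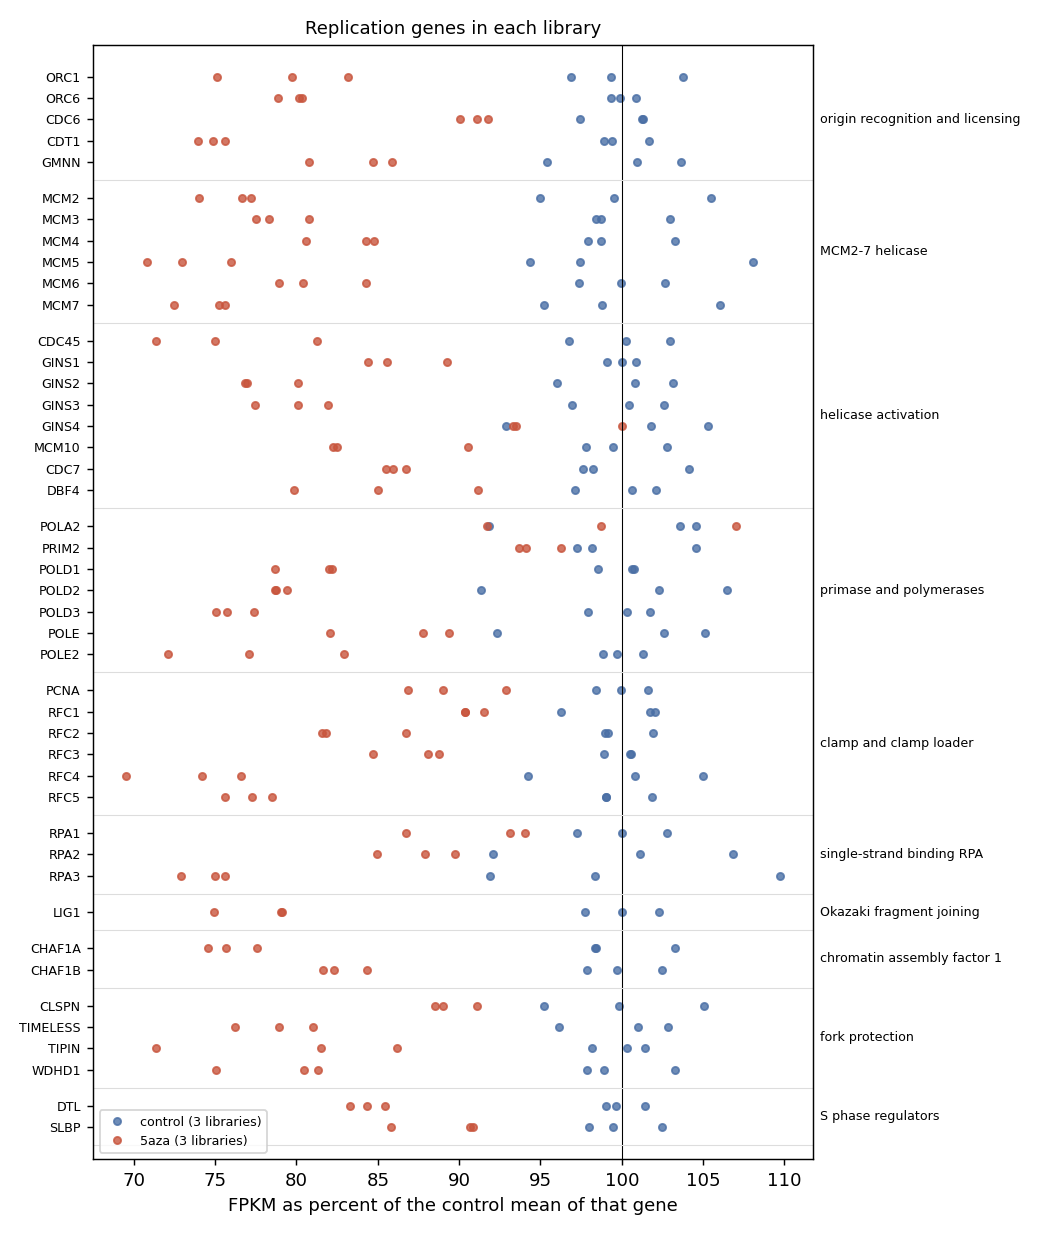
FPKM of each of the 44 replication genes in each library, as a percent of that gene's control mean (x axis), with genes on the y axis in the order of the complexes; blue points are the 3 control and red points the 3 5aza libraries. In 42 genes the red points all lie to the left of the blue ones, and in GINS4 and POLA2 they overlap.

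More abundant genes fell more often in these data, and members are abundant, so members were also set beside genes of the same level. Among genes with a mean of 10 to under 30 FPKM, 16 of 18 members fell with a median log2 fold change of -0.26, beside 12.9% of 3655 genes and a median of -0.01. Between 30 and under 100 FPKM, 17 of 19 members fell (median -0.30), beside 26.2% of 2346 genes (median -0.06). At 100 FPKM or more all 6 members fell (median -0.30), beside 40.5% of 926 genes (median -0.11). Under 10 FPKM the only member, POLD3, fell (-0.39), beside 159 of 5433 genes (median 0.06). With the trend of fold change on mean expression removed, 33 of 44 members fell with a median of -0.25, where 983 of 12360 genes did. Over all genes 1310 rose and 1619 fell, so that rises were 44.7% of calls; they were 74.2% with each library scaled to the same sum, where 29 of 44 members fell, and 59.3% with the expression trend removed.

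**Figure D2:**
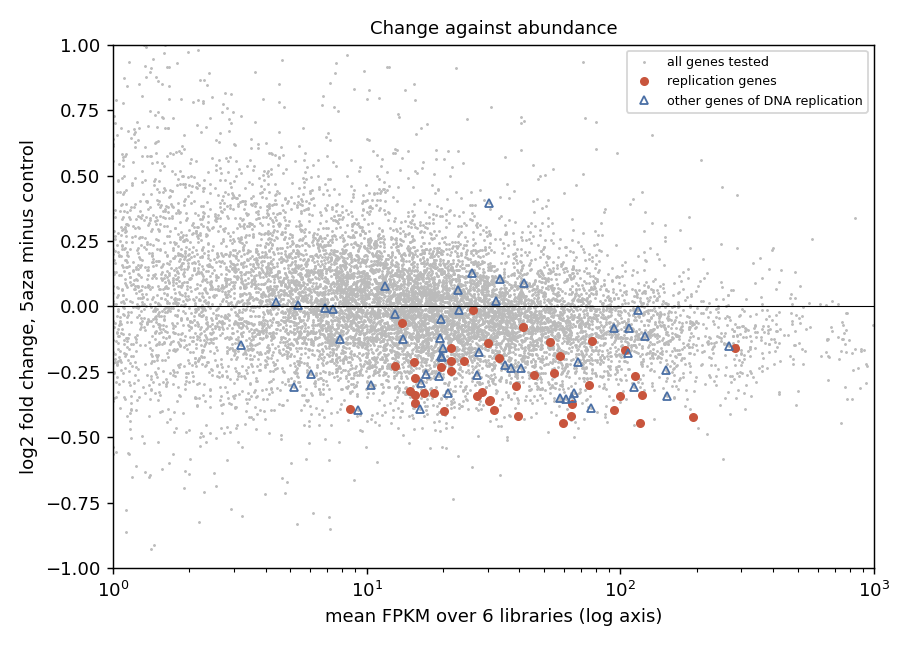
Log2 fold change of 5aza minus control (y axis) against mean FPKM over the 6 libraries (x axis, log scale) for all genes tested (grey points), the 44 replication genes (red) and 50 other genes of DNA replication (blue triangles). The red points lie below 0, between -0.45 and -0.01, while the grey ones lie on both sides.

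All 5 licensing genes fell. CDT1, which brings the MCM ring to origins, was at 72.3, 74.3 and 72.7 FPKM in control and 54.8, 55.3 and 54.1 FPKM in 5aza libraries. The groups lay far apart, and each varied by about 1 FPKM, with means of 73.1 ± 1.07 and 54.7 ± 0.604 (SD, n = 3). Its log2 fold change of -0.42 (SE 0.029) had the smallest adjusted p of the members (limma, 1.39e-04). CDT1 (ENSG00000167513) lies on chromosome 16 from 88803213 to 88809258 (GRCh38, GENCODE release 29).

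GMNN encodes geminin, which holds CDT1 back after origins have fired. It was at 61.8, 56.9 and 60.2 FPKM in control and 50.5, 48.2 and 51.2 FPKM in 5aza libraries, a log2 fold change of -0.25 (SE 0.042). CDT1 fell by 25.2% and GMNN by 16.2%, and CDT1 took 55.1% ± 1.40 of the FPKM of the pair in control and 52.3% ± 1.06 in 5aza libraries (SD, n = 3). The control and 5aza shares of CDT1 did not overlap, from 53.9% to 56.6% in control and from 51.4% to 53.4% in 5aza libraries, with no test of the share.

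ORC1 is the largest subunit of the origin recognition complex. It was at 18.2, 19.5 and 18.6 FPKM in control and 15.6, 15.0 and 14.1 FPKM in 5aza libraries, and ORC6, the smallest subunit, was at 31.6, 31.7 and 32.0 and at 25.5, 25.5 and 25.1 FPKM. Both groups were apart in each gene, with log2 fold changes of -0.33 (SE 0.053) and -0.33 (SE 0.033). CDC6, the ATPase that joins ORC to load MCM rings, had the smallest fall of the licensing genes, from 55.4 ± 1.22 to 50.4 ± 0.470 FPKM (SD, n = 3; log2 fold change -0.14, SE 0.031, limma adjusted p = 0.0192). The CDC6 call was lost in 9 of 15 alternatives (adjusted p 0.0507 to 0.186), among them those without control replicate 1 or 2 or any 1 of the 5aza replicates.

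All 6 subunits of the MCM2-7 helicase ring fell, by 16.8% to 26.7%. Their summed FPKM was 777, 827 and 756 in control and 606, 621 and 593 in 5aza libraries, so that the lowest control library was well above the highest 5aza library. MCM5 had the largest fall of all members. It was at 134, 149 and 130 FPKM in control and 97.3, 104 and 100.3 FPKM in 5aza libraries, a log2 fold change of -0.45 (SE 0.054, limma adjusted p = 0.00142). MCM5 (ENSG00000100297) lies on chromosome 22 from 35400063 to 35425430 (GRCh38, GENCODE release 29).

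MCM7 was the most abundant subunit, at 220, 236 and 212 FPKM in control and 167, 168 and 161 FPKM in 5aza libraries (log2 fold change -0.42, SE 0.043). Its exons overlap those of AP4M1 on the opposite strand by 392 bases, and the sources do not say whether counting used strand. MCM2 likewise overlaps an antisense gene, AC023593.1, by 1113 bases. Overlaps with opposite-strand exons also occur in CLSPN (280 bases), LIG1 (179), RFC5 (160 and 186), RPA1 (156) and DBF4 (142), among others. MCM2, which also binds histones at the fork, fell from 107 ± 5.67 to 81.5 ± 1.85 FPKM, and MCM3 from 111 ± 2.80 to 87.8 ± 1.91 FPKM (SD, n = 3; log2 fold change -0.34, SE 0.032, limma adjusted p = 4.93e-04). MCM6 fell from 82.8 ± 2.20 to 67.2 ± 2.30 FPKM. MCM4 had the smallest fall of the ring, from 125 ± 3.63 to 104 ± 2.86 FPKM (SD, n = 3; log2 fold change -0.26, SE 0.035, limma adjusted p = 0.00206).

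The subunits of the ring kept nearly the same proportions, with small shifts. MCM7 made up 28.3% ± 0.261 of the summed FPKM in control and 27.3% ± 0.288 in 5aza libraries (SD, n = 3), and MCM6, the lowest, 10.5% ± 0.215 and 11.1% ± 0.137. The share of MCM4 was 15.9%, 15.7% and 16.2% in control and 17.4%, 17.1% and 17.0% in 5aza libraries. By FPKM, every 5aza library lay below every control library in 22.6% of all genes tested, and above in 19.6%. The shares of MCM4, MCM6 and MCM7 did not overlap between the groups. Nor did that of MCM5, from 17.2% to 18.0% in control and from 16.1% to 16.9% in 5aza libraries. The shares of MCM2 and MCM3 overlapped, and a change of any subunit moves the other shares. These shares sum to a whole and were not tested.

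**Figure D3:**
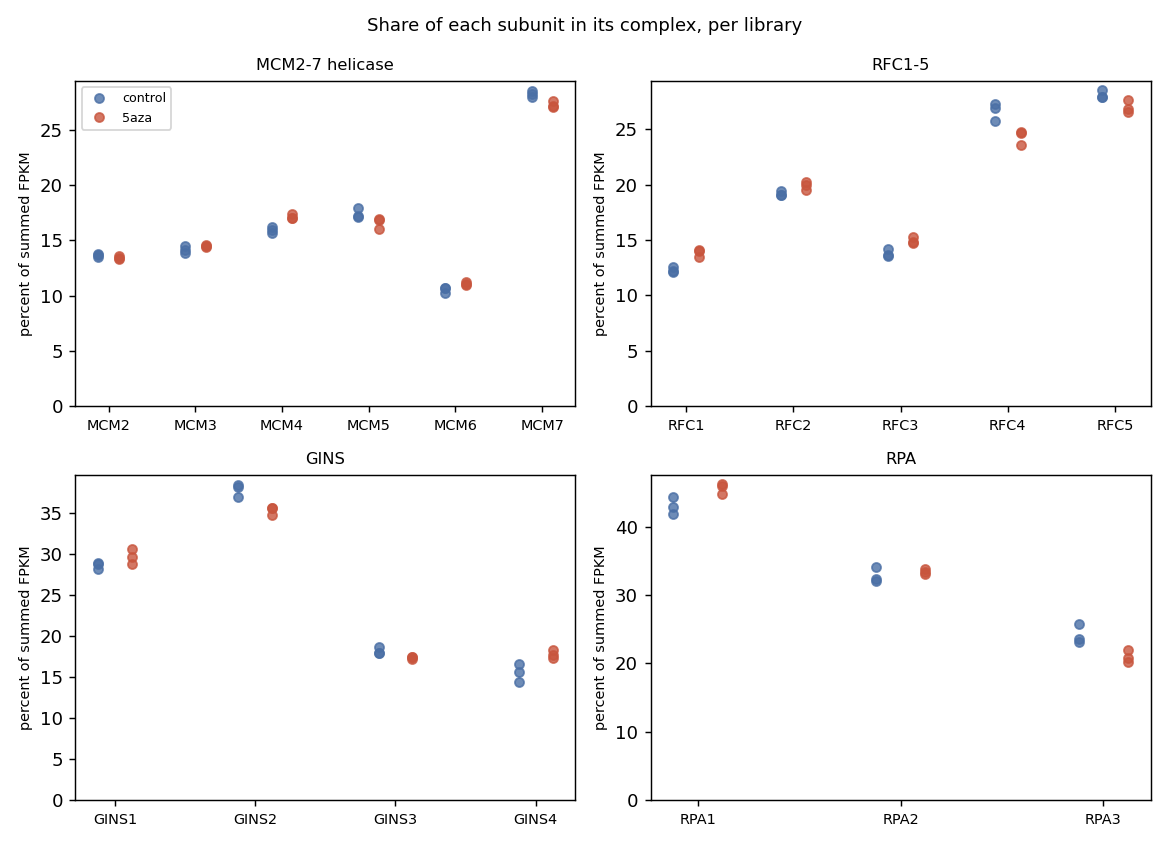
Share of each subunit in the summed FPKM of its complex (y axis, percent) for MCM2-7, the clamp loader RFC1-5, GINS and RPA; each point is 1 library, control in blue and 5aza in red. MCM4 moved from 15.9% to 17.2% of its ring and RFC1 from 12.3% to 13.8% of its complex, and by mean share MCM4 passed MCM5 and GINS4 passed GINS3.

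Of 8 genes that turn the loaded ring into a moving helicase, 7 fell. CDC45, which joins MCM2-7 and GINS in the active helicase, had the largest change. It was at 23.0, 23.7 and 22.2 FPKM in control and 17.2, 18.7 and 16.4 FPKM in 5aza libraries, a log2 fold change of -0.40 (SE 0.056, limma adjusted p = 0.00285). Of the 4 GINS subunits, GINS2 fell from 34.4 ± 1.24 to 26.8 ± 0.638 FPKM, GINS3 from 16.5 ± 0.466 to 13.2 ± 0.372 FPKM and GINS1 from 26.0 ± 0.231 to 22.5 ± 0.656 FPKM (SD, n = 3). GINS3 overlaps an antisense gene, AC009118.2, by 558 exon bases.

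GINS4 did not pass the test. It was at 13.1, 14.3 and 14.8 FPKM in control and 13.2, 14.1 and 13.2 FPKM in 5aza libraries, so the groups overlapped (log2 fold change -0.06, 95% interval -0.20 to 0.08, limma adjusted p = 0.493). Its share of GINS was 15.5% ± 1.08 in control and 17.7% ± 0.439 in 5aza libraries. The sign of its log2 fold change turned with each library scaled to the same sum (0.016). Its exons overlap an antisense gene by 1159 bases, so without strand its reads and those of that gene cannot be told apart.

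CDC7 and DBF4, the kinase and the activating subunit that phosphorylate MCM, fell together. CDC7 was at 17.2, 16.2 and 16.3 FPKM in control and 14.2, 14.4 and 14.2 FPKM in 5aza libraries, and DBF4 at 14.1, 13.6 and 14.3 and at 12.7, 11.9 and 11.2 FPKM. CDC7 made up 54.3% ± 0.902 of the pair in control and 54.5% ± 1.60 in 5aza libraries (SD, n = 3), a difference smaller than the spread. MCM10, a scaffold of the early fork, fell from 21.2 ± 0.540 to 18.0 ± 1.00 FPKM. The CDC7 call was lost with libraries scaled to the same sum (adjusted p = 0.0731). The DBF4 call was lost in 7 of 15 alternatives (adjusted p 0.0503 to 0.115), among them those without any 1 control replicate or 5aza replicate 2 or 3, and the MCM10 call in 4 (0.0531 to 0.0688), among them those without control replicate 2, 5aza replicate 1 or 5aza replicate 3.

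Of the 7 measured primase and polymerase members, POLD1, POLD2, POLD3, POLE and POLE2 fell, and POLA2 and PRIM2 did not pass. Polymerase delta copies the lagging strand and epsilon the leading strand, while alpha-primase lays the primers for both. POLD3, an accessory subunit of delta, had the largest change. It was at 9.54, 9.91 and 9.77 FPKM in control and 7.54, 7.31 and 7.37 FPKM in 5aza libraries (log2 fold change -0.39, SE 0.052, limma adjusted p = 0.00216).

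The catalytic subunit POLD1 was at 43.0, 43.0 and 42.1 FPKM in control and 33.6, 35.1 and 35.0 FPKM in 5aza libraries, and POLD2 at 139, 145 and 124 and at 108, 107 and 107 FPKM. POLD1 shares 426 exon bases with AC020909.1 on the same strand, and POLD3 shares 123 with AP001372.2, also on the same strand. POLD2 made up 72.1% ± 1.41 of the FPKM of these 3 delta subunits in control and 71.9% ± 0.449 in 5aza libraries, and POLD3 5.18% ± 0.321 and 4.96% ± 0.0854 (SD, n = 3), differences within the spread of the control libraries. POLE2 fell from 17.5 ± 0.219 to 13.5 ± 0.947 FPKM. POLE, the catalytic subunit of epsilon, fell from 23.2 ± 1.57 to 20.0 ± 0.887 FPKM (limma adjusted p = 0.0420), a call lost in 10 of 15 alternatives (adjusted p 0.0524 to 0.193), among them those without control replicate 2 or 3 or any 1 of the 5aza replicates.

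POLA2, the accessory subunit of polymerase alpha, was at 27.2, 27.5 and 24.1 FPKM in control and 25.9, 28.1 and 24.1 FPKM in 5aza libraries. The groups overlapped fully, with means of 26.3 ± 1.85 and 26.1 ± 2.01 FPKM (SD, n = 3; log2 fold change -0.01, 95% interval -0.18 to 0.15, limma adjusted p = 0.917). Its exons overlap those of another protein-coding gene of the same strand, AP000944.2, by 2012 bases, so that reads may have been split between them. PRIM2, the large primase subunit, was at 44.5, 41.8 and 41.4 FPKM in control and 40.1, 39.9 and 41.0 FPKM in 5aza libraries. Its libraries did not overlap by group, but the test did not pass (log2 fold change -0.08, 95% interval -0.17 to 0.01, limma adjusted p = 0.185). PRIM2 has a near-identical partial copy in the genome, so its value is uncertain. The signs of both turned with libraries scaled to the same sum, to 0.067 for POLA2 and 0.002 for PRIM2, and that of POLA2 also in 5 other alternatives, among them those without control replicate 1 (0.013), control replicate 2 (0.02) or 5aza replicate 3 (0.042).

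The clamp and all 5 clamp loader genes fell, over a wide range. PCNA, the ring that tethers polymerases to DNA and a known target of both E2F and p53, was the most abundant member. It was at 304, 299 and 294 FPKM in control and 278, 266 and 260 FPKM in 5aza libraries, so the groups did not overlap, with a log2 fold change of -0.16 (SE 0.033, limma adjusted p = 0.0132). That call was lost in 6 of 15 alternatives (adjusted p 0.05 to 0.59): its log2 fold change was -0.02 under quantile normalization and -0.05 with the expression trend removed, and the call was also lost without 5aza replicate 2 or 3. PCNA has named pseudogenes (PCNAP1, PCNAP3 and PCNAP4), as have RFC3, RFC5, RPA2, DBF4 and POLD2. None of these pseudogenes has a row in the deposited table, so it cannot be seen whether reads were split.

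RFC4, a small subunit of the loader, had the largest fall of this group. It was at 64.8, 72.2 and 69.3 FPKM in control and 52.7, 47.8 and 51.0 FPKM in 5aza libraries (log2 fold change -0.44, SE 0.052, limma adjusted p = 0.00127). RFC5 was at 71.9, 74.0 and 71.9 FPKM in control and 57.0, 56.1 and 54.9 FPKM in 5aza libraries (log2 fold change -0.37, SE 0.031, limma adjusted p = 2.95e-04). RFC2 fell from 49.6 ± 0.821 to 41.3 ± 1.45 FPKM and RFC3 from 35.6 ± 0.338 to 31.0 ± 0.771 FPKM, the latter call being lost with libraries scaled to the same sum (adjusted p = 0.0513).

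RFC1, the large subunit that opens the clamp, changed least. It was at 30.5, 32.2 and 32.3 FPKM in control and 28.6, 28.6 and 28.96 FPKM in 5aza libraries (log2 fold change -0.14, SE 0.037, limma adjusted p = 0.0328), and its call was lost in 9 of 15 alternatives (adjusted p 0.0647 to 0.359), among them those without control replicate 2 or 3 or any 1 of the 5aza replicates. As a share of the summed FPKM of RFC1-5, RFC1 went from 12.3% ± 0.233 to 13.8% ± 0.342 and RFC4 from 26.6% ± 0.810 to 24.3% ± 0.692 (SD, n = 3). By FPKM, every 5aza library lay below every control library in 22.6% of all genes tested, and above in 19.6%. The groups did not overlap in the share of any RFC subunit, where a change of 1 subunit moves the other shares. These shares sum to a whole and were not tested.

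Of the 3 subunits of RPA, which coats single-stranded DNA, 2 fell. RPA3, the smallest subunit, fell from 49.7, 44.6 and 41.6 FPKM in control to 34.0, 33.0 and 34.2 FPKM in 5aza libraries (log2 fold change -0.42, SE 0.062, limma adjusted p = 0.00344). Its exons overlap those of UMAD1 on the opposite strand by 118 bases. RPA1, the large DNA-binding subunit, was at 80.6, 82.9 and 78.4 FPKM in control and 75.9, 75.1 and 70.0 FPKM in 5aza libraries, with no overlap of the groups, and did not pass (log2 fold change -0.13, 95% interval -0.23 to -0.04, limma adjusted p = 0.0531). RPA2 fell from 61.6 ± 4.59 to 53.9 ± 1.499 FPKM (limma adjusted p = 0.0434), a call lost in 10 of 15 alternatives (adjusted p 0.0565 to 0.159), among them those without control replicate 1 or 2 or any 1 of the 5aza replicates.

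LIG1 and the listed subunits of chromatin assembly factor 1, CHAF1A and CHAF1B, fell. LIG1, the ligase that joins Okazaki fragments, was at 34.2, 35.0 and 33.4 FPKM in control and 27.0, 27.0 and 25.6 FPKM in 5aza libraries (log2 fold change -0.36, SE 0.039, limma adjusted p = 8.78e-04). CHAF1A, the large subunit of chromatin assembly factor 1, which places histones on new DNA behind PCNA, was at 35.4, 37.2 and 35.4 FPKM in control and 27.3, 27.9 and 26.8 FPKM in 5aza libraries (log2 fold change -0.40, SE 0.038, limma adjusted p = 5.08e-04). Its partner CHAF1B fell from 16.9 ± 0.396 to 14.0 ± 0.238 FPKM (log2 fold change -0.27, SE 0.043, limma adjusted p = 0.00436). CHAF1B shares 89 exon bases with MORC3 on the same strand. RBBP4, counted below with the other chromatin assembly genes, fell less (log2 fold change -0.11).

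All 4 genes of fork protection fell. TIMELESS, which with TIPIN keeps helicase and polymerase coupled, was at 30.8, 31.4 and 29.4 FPKM in control and 24.1, 24.7 and 23.3 FPKM in 5aza libraries (log2 fold change -0.34, SE 0.043, limma adjusted p = 0.00164). TIPIN was at 20.7, 20.2 and 20.9 FPKM in control and 17.7, 14.7 and 16.8 FPKM in 5aza libraries, and 579 of its exon bases overlap a processed pseudogene, RPL9P25. WDHD1, which links the helicase to polymerase alpha, fell from 17.3 ± 0.502 to 13.6 ± 0.586 FPKM. CLSPN, the mediator that lets ATR activate CHEK1, had the smallest fall, from 22.7 ± 1.12 to 20.4 ± 0.312 FPKM (SD, n = 3; log2 fold change -0.16, SE 0.047, limma adjusted p = 0.0448). The CLSPN call was lost in 9 of 15 alternatives (adjusted p 0.0675 to 0.210), among them those without control replicate 1 or 2 or any 1 of the 5aza replicates.

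Both S phase regulators fell. DTL, the substrate receptor through which CDT1 is destroyed on loaded PCNA, was at 23.1, 23.3 and 23.7 FPKM in control and 19.5, 20.0 and 19.7 FPKM in 5aza libraries (log2 fold change -0.24, SE 0.037, limma adjusted p = 0.00350). SLBP, which binds the stem-loop of histone mRNAs, was at 113, 108 and 110 FPKM in control and 100.2, 100 and 94.7 FPKM in 5aza libraries (log2 fold change -0.17, SE 0.035, limma adjusted p = 0.0131). The SLBP call was lost with libraries scaled to the same sum, with quantile normalization and with the expression trend removed (adjusted p 0.0932 to 0.143).

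**Figure D4:**
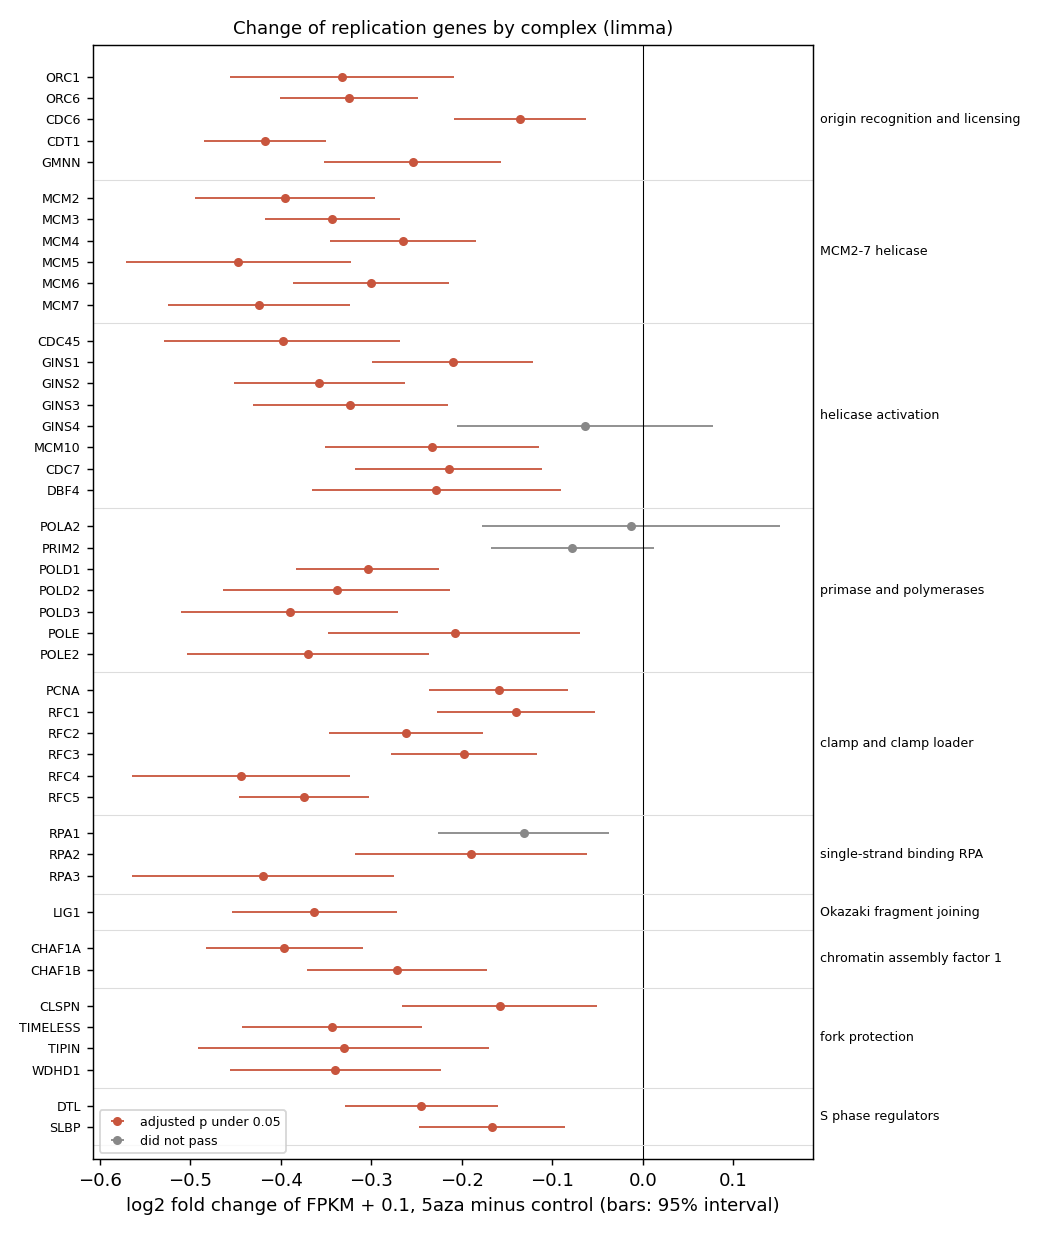
Log2 fold change of FPKM + 0.1, 5aza minus control (x axis), with its 95% interval from limma, for 44 replication genes grouped by complex (y axis); red genes passed the adjusted p threshold of 0.05 and grey ones did not. Estimates run from -0.45 for MCM5 to -0.01 for POLA2, and the grey genes are GINS4, POLA2, PRIM2 and RPA1.

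Of 53 other genes of DNA replication, POLA1, DNA2 and CUL4B were not analysed here. In the remaining 50, falls numbered 28 and rises 2, while 20 did not pass, and the median log2 fold change was -0.18; of all genes tested 13.1% fell and 10.6% rose. All 3 measured subunits of RNase H2, which removes RNA primers, fell. Falls numbered 8 of 11 in helicase activation, 3 of 4 in clamp loading and unloading, 5 of 8 in chromatin assembly, 3 of 8 in licensing, 4 of 11 in fork maintenance and DNA topology, 1 of 2 among MCM paralogues and 1 of 3 among polymerase subunits. In that last group POLE3 fell (log2 fold change -0.21), POLD4 rose and POLE4 did not pass (-0.01, limma adjusted p = 0.969), POLE3 and POLE4 being small subunits of polymerase epsilon. Of origin recognition subunits outside the 44 genes, ORC2, ORC3, ORC4 and ORC5 did not pass, with log2 fold changes of -0.13, -0.12, 0.06 and -0.02, beside -0.33 for both ORC1 and ORC6; the difference between the subunits was not tested. The sign for ORC4 is positive, and its groups overlapped.

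The largest falls of the wider list were of MTBP, a partner of Treslin in origin firing, from 10.5 ± 0.710 to 7.97 ± 0.255 FPKM, of ATRIP, the partner of the checkpoint kinase ATR, from 18.4 ± 1.22 to 14.0 ± 1.02 FPKM, and of ASF1B, a histone chaperone, from 86.7 ± 5.16 to 66.3 ± 1.35 FPKM (SD, n = 3). POLD4, the smallest subunit of polymerase delta, rose, while POLD1, POLD2 and POLD3 fell. It was at 25.5, 26.4 and 26.3 FPKM in control and 37.1, 30.8 and 35.5 FPKM in 5aza libraries, all 3 above every control library (log2 fold change 0.40, SE 0.067, limma adjusted p = 0.00558). CCNE1, cyclin E1, also rose, from 24.9 ± 0.473 to 27.3 ± 0.783 FPKM (limma adjusted p = 0.0482), a call lost in 8 of 15 alternatives (adjusted p 0.0675 to 0.139), among them those without any 1 of the 6 libraries.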

How the data were processed

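RNA-seq of HCT116 cells gave 1 deposited table of FPKM values made by the authors, with 1 column per library. The unit comes from the name of the deposited table. Named in the submitters' processing notes, without saying what each did, are DESeq2 1.10.1, HTSeq 0.6.0, STAR 2.5.1b and 2 builds, Rnor_6.0 and GRCh38; the program behind the FPKM values and any use of strand were not given in the sources used here. Columns were matched through the sample descriptions. For 11 identifiers on more than 1 row, none of them a member, only the row of higher mean entered.

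Genes reaching 0.5 FPKM in 3 or more libraries entered a limma fit (limma 3.58.1, R 4.3.3) on log2(FPKM + 0.1), with a variance trend, two-sided, Benjamini-Hochberg adjusted over all genes tested; threshold 0.05. The pseudocount makes fold changes of low genes too small. The fit was tested on simulated data. All single-gene adjusted p-values are limma's. Intervals are at 95%. Members and lists were chosen with earlier results of these data known. Full statistics are given for the largest and smallest change in each complex, members that did not pass, the 3 smallest adjusted p-values, and of other replication genes up to 3 largest rises and falls among those that passed; other members are described by their values. The alternatives were other pseudocounts, filters, scalings, variance models, a replicate block and leaving out each library.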

Additional observations from a re-analysis of the deposited data

How the results depend on the processing

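Of 44 replication genes, 29 kept their call and direction under all 15 alternatives, and all 29 of these fell. Falls among the 44 numbered 29 to 41 in the alternatives that used all libraries and 32 to 37 with 1 library left out, and rises 0 throughout. The median log2 fold change of the members lay between -0.32 and -0.22. With libraries scaled to the same sum, 779 genes fell and 2239 rose over all genes, and of the other replication genes 18 fell and 4 rose; the sign turned for GINS4 (0.016), POLA2 (0.067) and PRIM2 (0.002). POLA2 also turned with quantile normalization (0.008), with the expression trend removed (0.021), and in 3 of 6 fits with 1 library left out, which ranged from -0.073 to 0.042. Over all genes, 983 fell with the expression trend removed and 1041 with no variance trend. With 1 library left out, 940 to 1523 genes fell and 693 to 1084 rose. Rises among the other replication genes numbered 4 with quantile normalization or the expression trend removed, 1 with no variance trend and 1 with any library left out. The causes were not tested.

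Replicate numbers are shared between the groups. The deviations of same-numbered libraries correlated at 0.048, 0.077 and 0.068, and those of the other pairs at -0.091 to 0.019. Each library thus correlated best with its own number. These small values cannot settle whether same-numbered libraries were handled together, which was not tested. With the replicate block, 41 members fell (RPA1 passed, adjusted p = 0.0286), 1673 genes fell and 1259 rose over all genes, and 1 of the other replication genes rose. Depth is unknown, so no counting limit could be given.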
